A study of Homo sapiens with 12 samples.

Results

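The genes described here are 38 genes of protein folding, stress signalling and export in the endoplasmic reticulum (ER), the compartment in which a cell makes the proteins it secretes. They were chosen by symbol as a pathway set and fell into 10 roles: ER Hsp70 and Hsp90 chaperones, lectin chaperones, protein disulfide isomerases, ER DnaJ co-chaperones, secreted or luminal stress proteins, stress sensors and their transcription factors, ER-associated degradation, the translocon, the translocon-associated protein (TRAP) complex and the COPII coat. The choice was made with earlier results of these data known, so their counts beside those of all genes are descriptions. All 38 were found among the 25702 genes listed in the counts, and 37 were among the 9490 genes abundant enough to be tested. The RNA came from WI-38 cells, a line of normal human lung fibroblasts, in 12 flasks, 3 for each of 4 conditions. D1+ TGF-β and D20+ TGF-β cells had received TGF-β at 2 ng/mL for 1 or 20 days, and D1 and D20 cells had not. TGF-β is the cytokine that turns fibroblasts into matrix-secreting, contractile myofibroblasts, and the day 20 treatment was the study's model of that change. The labels give passages 2 to 3 for the D1 flasks and 5 to 6 for the D20 flasks, with or without TGF-β. By the study's methods, 1 treated and 1 untreated flask gave rise to all D20 flasks of their treatment, so the p-values measure the spread between flasks that share a parent culture and 1 cell line.

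Proteins bound for secretion enter the ER through the SEC61 channel, helped by SEC62, SEC63 and the TRAP complex, and are folded there by chaperones such as HSPA5 (BiP) and HSP90B1 (GRP94) and by disulfide isomerases. When unfolded proteins build up, the sensors ERN1 (IRE1), ATF6 and EIF2AK3 (PERK) switch on the unfolded protein response, in which ERN1 splices the XBP1 mRNA and spliced XBP1 and cleaved ATF6 raise chaperone and degradation genes. Proteins that fail to fold are handed to ER-associated degradation (SEL1L, SYVN1, HERPUD1 and EDEM1), and folded ones leave in COPII vesicles. Fibroblasts pass large amounts of procollagen and fibronectin through this route. XBP1 and ATF6 bind the ER stress response elements of promoters, named ERSE and ERSE-II.

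Both elements stood in promoters of these genes. Of the 9 promoters that held either, 6 are printed, those of the holders whose TGF-β values are given in most detail. Promoters of members that held neither are not printed, whatever their response. ERSE was searched as CCAAT, 9 bases of any kind and CCACG, and ERSE-II as ATTGG, 1 base of any kind and CCACG, on both strands of the RefSeq promoter windows (GRCh38.p14, 300 bases each). ERSE was in 22 of 27305 promoters (0.0806%), and in 6 of the 36 windows that matched a member, those of HSPA5, HSP90B1, CALR, CANX, CRELD2 and XBP1. ERSE-II was in 15 of the 27305 (0.0549%), and among the members in those of HYOU1, SDF2L1 and HERPUD1. The core of another element, the unfolded protein response element, searched as TGACGTG, was in 546 promoters (2%) and in 4 of the members, HYOU1, SEC62, SEC23A and SEC13. In HYOU1 it overlapped 1 of the 2 ERSE-II copies. PDIA3 and SEC24D matched no window. The 250 bases before each start are given 5′ to 3′ along the gene, with the fixed letters of the elements in capitals (in the reverse orientation they read CGTGG first).
HSPA5 (chr9:125241344-125241593, minus strand): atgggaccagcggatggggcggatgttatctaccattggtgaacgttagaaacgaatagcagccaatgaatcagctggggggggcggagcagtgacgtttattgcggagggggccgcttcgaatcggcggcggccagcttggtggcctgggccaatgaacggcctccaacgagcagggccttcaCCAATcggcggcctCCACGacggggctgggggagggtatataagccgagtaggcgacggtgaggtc
HSP90B1 (chr12:103930160-103930409, plus strand): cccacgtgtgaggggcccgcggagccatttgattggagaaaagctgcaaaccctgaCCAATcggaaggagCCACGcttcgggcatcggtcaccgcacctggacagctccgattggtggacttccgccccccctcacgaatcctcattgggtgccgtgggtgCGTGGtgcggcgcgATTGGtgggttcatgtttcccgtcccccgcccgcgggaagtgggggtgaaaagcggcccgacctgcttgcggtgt
XBP1 (chr22:28800570-28800819, minus strand): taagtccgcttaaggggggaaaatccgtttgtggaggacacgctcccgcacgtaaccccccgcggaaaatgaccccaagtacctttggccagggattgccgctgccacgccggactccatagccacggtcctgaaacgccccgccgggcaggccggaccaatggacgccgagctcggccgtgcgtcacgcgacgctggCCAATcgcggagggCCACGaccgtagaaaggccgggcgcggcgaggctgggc
HYOU1 (chr11:119057206-119057455, minus strand): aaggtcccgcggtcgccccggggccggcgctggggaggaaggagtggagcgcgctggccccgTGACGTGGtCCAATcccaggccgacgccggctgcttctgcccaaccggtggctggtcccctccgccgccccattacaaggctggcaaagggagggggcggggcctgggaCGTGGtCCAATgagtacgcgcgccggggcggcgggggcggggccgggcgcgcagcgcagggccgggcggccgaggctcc
SDF2L1 (chr22:21642052-21642301, plus strand): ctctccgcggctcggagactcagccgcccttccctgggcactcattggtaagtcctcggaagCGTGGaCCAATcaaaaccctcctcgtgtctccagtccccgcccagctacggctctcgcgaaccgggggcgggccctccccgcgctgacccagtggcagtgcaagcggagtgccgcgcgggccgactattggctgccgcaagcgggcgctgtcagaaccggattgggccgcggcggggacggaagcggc
HERPUD1 (chr16:56931892-56932141, plus strand): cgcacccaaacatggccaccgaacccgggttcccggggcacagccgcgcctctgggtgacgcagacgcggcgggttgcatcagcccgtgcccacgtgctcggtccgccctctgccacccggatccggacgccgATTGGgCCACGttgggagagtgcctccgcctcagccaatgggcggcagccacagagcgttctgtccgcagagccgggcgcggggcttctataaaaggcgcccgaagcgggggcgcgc
A match describes the letters in the window and is not a measured binding site. Both elements are named for the stress response of this pathway, so their shares among its genes are descriptions without a test.

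The library totals ranged from 8674488 to 18286197 counts, and each of the 12 libraries was nearest to a library of its own condition. D1 replicate 2 and D20+ TGF-β replicate 3 stood farther from their nearest library (root mean square log2 distance of 0.327 and 0.291) than the other libraries did (0.117 to 0.224), and counts without them are given where they bear on a result. The fibroblast markers had counts in every flask, at levels that varied (VIM from 5849.6 to 7874 cpm, the count scaled to a common library size, DCN from 198 to 1122 cpm and LUM from 33.9 to 365 cpm, the last with means of 60.0 cpm at D1 and 324 cpm at D20). ACTA2, which encodes the α-smooth muscle actin of myofibroblasts, had its highest mean level in the 1-day treated flasks (768 cpm, against 183 cpm in D1 cells). In D20 cells its mean was 287 cpm, and 315 cpm with TGF-β. The mean of TAGLN, also a myofibroblast marker, went from 1018 to 1860 cpm with treatment on day 1, and from 1101 to 1145 cpm on day 20. CNN1 was higher with treatment on day 1 (37.8 to 87.3 cpm) and lower on day 20 (53.3 to 39.4 cpm). MYH11 was low and fell on both days (0.80 to 0.58 and 0.90 to 0.63 cpm). Of the fibroblast markers, THY1 went from 689 to 300 cpm on day 20 and DCN from 1002 to 509 cpm, while COL1A1 and COL1A2 were higher. Of the markers of other cell types, KRT5, CDH5 and CD3E had 0 counts in all 12 libraries, and CDH1, SFTPC, PTPRC and PECAM1 had 5, 1, 7 and 20 counts over all of them. EPCAM and VWF had counts in every library, 45 and 175 in sum, with VWF at condition means of 1.08 to 1.33 cpm. CD68, which fibroblasts also express, was at 38.1 to 62.6 cpm.

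The 38 genes as a sum took 1.00% ± 0.040 (SD, n = 3) of the counts in D1 cells and 1.29% ± 0.017 in D1+ TGF-β cells. In D20 cells the share was 1.04% ± 0.021, and it was 1.32% ± 0.060 in D20+ TGF-β cells. The treated flasks lay above the untreated flasks on both days. Per kilobase of transcript, CALR (calreticulin) was the most abundant of them in the untreated cells, at 463 cpm per kb at D1, followed by HSP90B1 at 328, P4HB at 271 and SEC61G at 243 cpm per kb. ERN1 was the least abundant at 0.734 cpm per kb, followed by ATF6. In bulk RNA, a change in level per cell and a change in the share of cells that express a gene cannot be told apart.

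**Figure D1:**
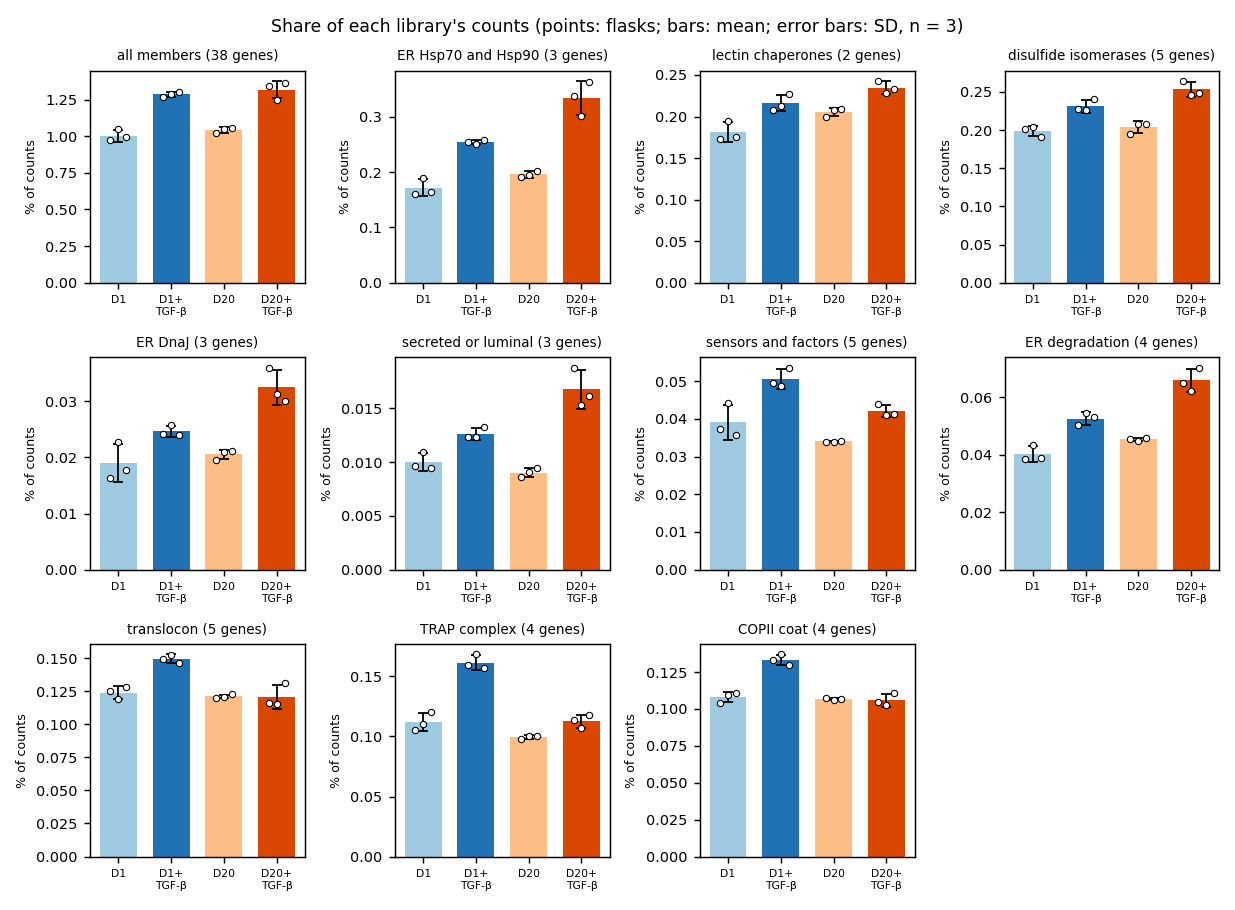
Percent of each library's counts (vertical axis) taken by all 38 genes and by each of the 10 roles, in the 4 conditions (horizontal axis), with bars for the mean, points for the 3 flasks and error bars for the SD. The mean of all 38 genes went from 1.00% to 1.29% with TGF-β on day 1 and from 1.04% to 1.32% on day 20, while the panels of the translocon, TRAP, COPII and the stress sensors and factors are highest at D1+ TGF-β.

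The comparison of D1+ TGF-β with D1 asked what 1 day of treatment changed. Of the 37 genes tested, 20 were higher and 0 lower after 1 day of TGF-β at an adjusted p under 0.01 (edgeR quasi-likelihood test, Benjamini-Hochberg over all genes tested), where 13.4% of all genes tested changed, 6.89% higher and 6.5% lower. The median log2 fold change was 0.38 for these genes and -0.02 for all genes tested. Values above 0 were found for 36 of the 37 and for 4445 of all 9490 genes. The called genes came from every role: all 3 Hsp70 and Hsp90 chaperones, 1 of the 2 lectin chaperones, 3 of 5 disulfide isomerases, 1 of 3 DnaJ co-chaperones, 2 of 3 secreted or luminal stress proteins, 2 of 4 sensors and factors, 2 of 4 degradation genes, 2 of 5 translocon genes, 2 of 4 TRAP subunits and 2 of 4 COPII coat genes. In 32 of the 37 genes all 3 treated flasks were above all 3 untreated flasks, against 17.6% of all genes, and in 0 were they all below (18.8% of all genes). The 17 genes that did not pass ranged from -0.09 for SSR4 to 0.38 for DNAJB11. At an unadjusted p under 0.05 no member was lower either by edgeR, and DESeq2 also called 0 lower.

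HSPA5 (chr9:127997132-128003661, minus strand, on GRCh37 as are all gene positions that follow), the main Hsp70 chaperone of the ER and the protein that holds the stress sensors inactive, was at 678, 685 and 642 cpm in the D1 flasks and at 1055, 1082 and 1106 cpm in the D1+ TGF-β flasks. The treated flasks were all higher, by a log2 fold change of 0.69 (SE 0.10, adjusted p = 0.000235). HSP90B1, the Hsp90 of the ER, rose from 913 ± 122 cpm (SD, n = 3) to 1364 ± 32.3 cpm, a log2 fold change of 0.58 (SE 0.088, adjusted p = 0.00037). Its exons overlap TTC41P and UQCC6 on the other strand. Exons of HYOU1, CALR, CANX, P4HB, PDIA3, PDIA6, TXNDC5, DNAJB11, CRELD2, ERN1, SYVN1 and EDEM1 also overlap other annotated genes there. So do those of SEC61A1, SEC61G, SEC62, SEC63, SSR1, SSR2, SSR3, SSR4, SEC23A, SEC13 and SEC31A. The use of strand in the counting is not given in the sources used here. HYOU1 (GRP170), which exchanges the nucleotide of HSPA5, was at 121, 129 and 101 cpm at D1 and 172, 176 and 185 cpm at D1+ TGF-β, and its log2 fold change was 0.61 (SE 0.093, adjusted p = 0.00038). The flasks of the 2 conditions did not overlap for any of these chaperones. Among the proteins that work with them, DNAJB9 (ERdj4), a co-chaperone of HSPA5, rose by 0.76 (SE 0.14, adjusted p = 0.00167) and MANF, a secreted protein that binds HSPA5, by 0.57 (SE 0.11, adjusted p = 0.00223).

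XBP1 (chr22:29190543-29196585, minus strand), the transcription factor made active by ERN1, was at 60.8, 68.8 and 66.2 cpm at D1 and at 105, 109 and 106 cpm at D1+ TGF-β. The rise was 0.71 (SE 0.079, adjusted p = 3.09e-05), and the counts per gene do not separate spliced from unspliced XBP1 mRNA. HERPUD1 (chr16:56966054-56978776, plus strand), a membrane protein that organises the degradation complex, was at 54.0, 48.4 and 53.1 cpm at D1 and at 93.7, 92.2 and 87.7 cpm at D1+ TGF-β. Its log2 fold change of 0.82 (SE 0.094, adjusted p = 3.90e-05) was the largest of the 37 tested in this comparison. CREB3L2, a factor cleaved like ATF6 and known for raising secretion genes in cartilage, rose by 0.53 (SE 0.13, adjusted p = 0.00908), with D1 replicate 2 at 179 cpm close to the treated flasks at 199.9, 196 and 208 cpm. ERN1 itself was below the abundance filter, at 6.70, 5.31 and 5.36 cpm at D1 and 12.8, 11.7 and 11.4 cpm at D1+ TGF-β. In a fit without the filter it was higher by 1.03 (SE 0.17, adjusted p = 4.99e-05). ATF6, the other sensor in the set, stayed within its flask spread at 59.7 ± 4.50 cpm and 60.1 ± 2.55 cpm, with a log2 fold change of 0.01 and an adjusted p of 0.956.

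Of the 13 entry and export genes, 6 rose at 1 day. SSR3 (chr3:156257342-156272938, minus strand), the γ subunit of the TRAP complex, was at 479, 466 and 591 cpm at D1 and 872, 957 and 845 cpm at D1+ TGF-β, a log2 fold change of 0.80 (SE 0.11, adjusted p = 0.000154). SSR1 (chr6:7268539-7347679, minus strand), the α subunit, was at 270.0, 336 and 293 cpm at D1 and 442, 476 and 443 cpm at D1+ TGF-β, a rise of 0.60 (SE 0.083, adjusted p = 0.00019). All treated flasks were above all untreated flasks for both subunits, while SSR2 and SSR4 did not pass the test (0.24 and -0.09). SEC24D (chr4:119643978-119759838, minus strand), a cargo-binding COPII subunit known to be needed for procollagen export, was at 179, 192 and 184 cpm at D1 and 278, 297 and 270.4 cpm at D1+ TGF-β. Its rise of 0.61 (SE 0.065, adjusted p = 2.34e-05) had the smallest adjusted p of the members. SEC63, the DnaJ protein of the translocon, rose by 0.48 (adjusted p = 0.000494), SEC23A of the inner COPII coat by 0.48 (adjusted p = 0.00145) and SEC61G, the γ subunit of the channel, by 0.41 (adjusted p = 0.00784). The other called genes were PDIA4, PDIA3, TXNDC5, CANX, SEL1L and SDF2L1, with log2 fold changes from 0.33 to 0.47.

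Of the 20 calls at 1 day, 10 held under every one of the 20 alternative settings (HSPA5, HSP90B1, HYOU1, PDIA4, XBP1, HERPUD1, SEC63, SSR1, SSR3 and SEC24D). Without D1 replicate 2 there were 22 higher genes, and the fewest, 12, were left without D1+ TGF-β replicate 2. Among the genes named with full values, the call of DNAJB9 was lost without D1 replicate 1 (adjusted p = 0.0102) or D1+ TGF-β replicate 2 (0.0127), that of MANF without D1 replicate 1 (0.0125) or D1 replicate 3 (0.0103), and that of CREB3L2 without any of 9 libraries (up to 0.0447, without D1 replicate 1).

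**Figure D2:**
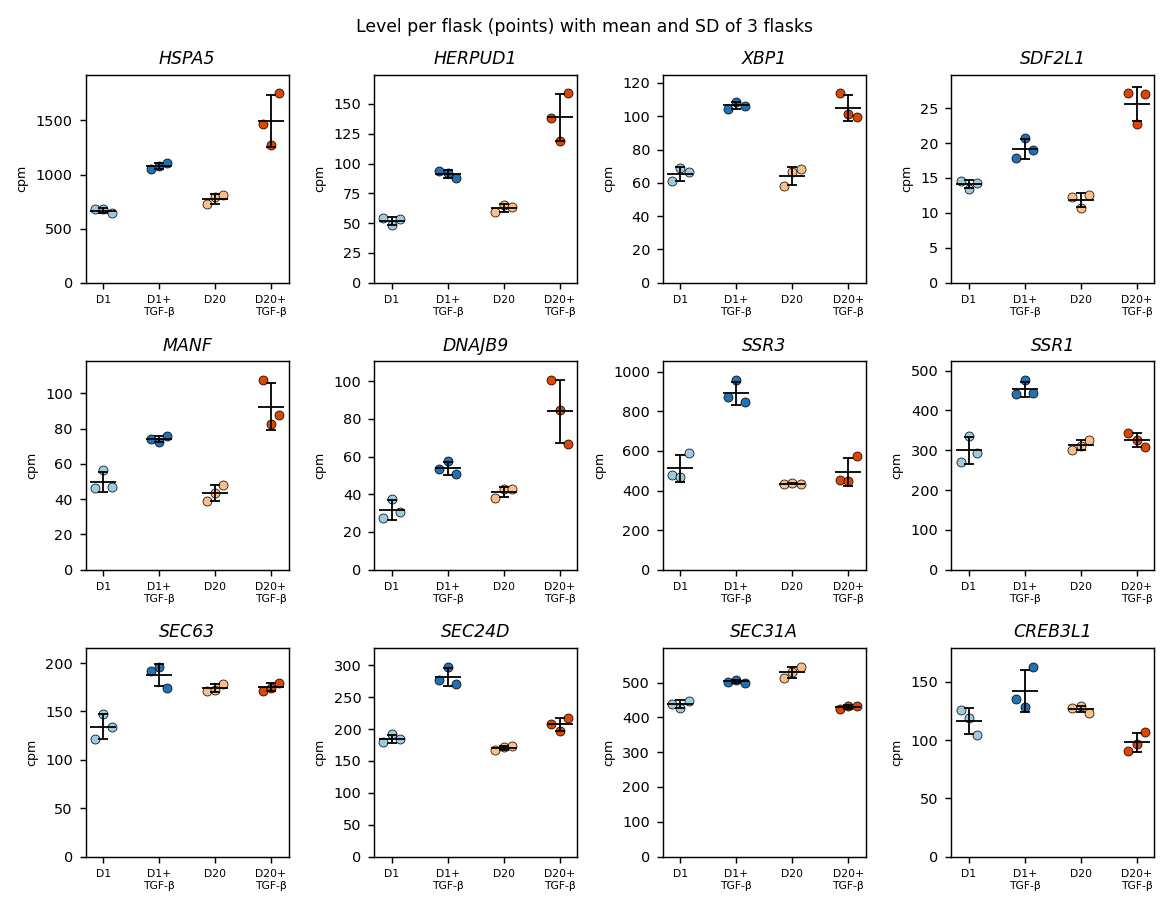
Level in cpm (vertical axis, from 0) of 12 genes in the 4 conditions (horizontal axis), with a point per flask and the mean and SD of 3 flasks. HSPA5, HERPUD1, SDF2L1, MANF and DNAJB9 have their highest flasks at D20+ TGF-β, while SSR3, SSR1 and SEC24D have theirs at D1+ TGF-β.

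The comparison of D20+ TGF-β with D20 asked what long treatment changed beyond time in culture. After 20 days, 18 of the 37 genes were higher and 2 lower (CREB3L1 and SEC31A), where 27.5% of all genes tested changed, 12.8% higher and 14.7% lower. The median log2 fold change was 0.21 against 0.01 for all genes. The called genes were not spread over all roles: the 3 Hsp70 and Hsp90 chaperones, the 3 DnaJ co-chaperones and the 3 secreted or luminal stress proteins were all higher, as were 3 of 4 degradation genes and 3 of 5 disulfide isomerases, while 0 of 5 translocon genes and 0 of 4 TRAP subunits passed in either direction, the lectin chaperones gave 0 of 2, the COPII coat had 1 gene higher and 1 lower of 4, and the sensors and factors 2 higher and 1 lower of 4. All treated flasks were above all untreated flasks in 23 genes (28.7% of all genes) and below them in 3 (29.7% of all genes). The 9 translocon and TRAP genes had log2 fold changes from -0.20 to 0.18.

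HERPUD1 was at 59.4, 65.0 and 63.9 cpm in the D20 flasks and at 138, 119 and 159 cpm in the D20+ TGF-β flasks, a log2 fold change of 1.14 (SE 0.092, adjusted p = 6.99e-07). It was the largest change of the 37. SDF2L1 (chr22:21996591-21998588, plus strand), a luminal protein that works with DNAJB11 to keep misfolding proteins soluble, was at 12.3, 10.8 and 12.5 cpm at D20 and at 27.1, 22.7 and 27.0 cpm at D20+ TGF-β, a rise of 1.11 (SE 0.10, adjusted p = 2.44e-06). MANF (chr3:51422722-51426828, plus strand) was at 39.0, 43.3 and 48.2 cpm at D20 and at 107, 82.5 and 87.7 cpm at D20+ TGF-β, a rise of 1.09 (SE 0.11, adjusted p = 5.81e-06). These genes were at 2.13 to 2.21 times their untreated level, and no flask overlapped. HSPA5 was at 726, 790.2 and 813 cpm at D20 and 1466, 1271 and 1749.7 cpm at D20+ TGF-β, higher by 0.95 (SE 0.10, adjusted p = 7.93e-06). Its treated flasks differed among themselves by more than the untreated ones, with an SD of 241 cpm against 45.1 cpm. HYOU1 was at 113, 120.1 and 131 cpm at D20 and 229, 203 and 232 cpm at D20+ TGF-β, higher by 0.87 (SE 0.092, adjusted p = 8.45e-06). XBP1 was at 58.1, 66.8 and 68.1 cpm at D20 and 114, 101 and 99.4 cpm at D20+ TGF-β, higher by 0.70 (SE 0.079, adjusted p = 1.32e-05). The difference between its responses at the 2 days was -0.0029 on the log2 scale (SE 0.11).

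The other genes higher by 0.5 or more on the log2 scale at 20 days were mostly co-chaperones and degradation genes. DNAJB9 rose by 1.03 (SE 0.14, adjusted p = 6.17e-05), with 66.7 to 100.5 cpm in the treated flasks against 38.2 to 43.0 cpm in the untreated ones. SYVN1 (HRD1), the ubiquitin ligase of the degradation complex, rose by 0.74 (SE 0.093, adjusted p = 3.56e-05), and its exons overlap MRPL49 and FAU. EDEM1, which marks misfolded glycoproteins for degradation by trimming mannose, rose by 0.68 (SE 0.092, adjusted p = 6.81e-05). DNAJB11 (ERdj3), a co-chaperone of HSPA5, rose by 0.68 (SE 0.11, adjusted p = 0.000248), PDIA4 (ERp72) by 0.60 (SE 0.079, adjusted p = 4.95e-05), CREB3L2 by 0.63 (SE 0.13, adjusted p = 0.00175) and HSP90B1 by 0.53 (SE 0.088, adjusted p = 0.00032). Smaller rises, from 0.28 to 0.40, were called for SEC24D, TXNDC5, PDIA3, DNAJC3 and CRELD2. ERN1, below the filter, was at 5.82, 5.92 and 6.43 cpm at D20 and 13.9, 11.6 and 8.51 cpm at D20+ TGF-β, higher by 0.93 (SE 0.16, adjusted p = 6.73e-05) in the fit without the filter.

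The lower genes were SEC31A (chr4:83739662-83822319, minus strand), the outer COPII coat subunit, and CREB3L1 (chr11:46299213-46342959, plus strand), also called OASIS, a membrane-bound factor related to ATF6 that is known to raise type I collagen genes in bone. SEC31A was at 514, 530.1 and 544 cpm at D20 and at 423, 433 and 432 cpm at D20+ TGF-β, a log2 fold change of -0.30 (SE 0.059, adjusted p = 0.00119). CREB3L1 was at 128, 129 and 124 cpm at D20 and at 90.4, 96.7 and 107 cpm at D20+ TGF-β, a log2 fold change of -0.37 (SE 0.098, adjusted p = 0.00793). The treated flasks lay below the untreated flasks for both genes. COL1A1, a type I collagen gene, was at a mean of 7452 cpm in the same treated flasks and at 3762 cpm at D20. COL1A2, the other type I collagen gene, was at 5647 and 4331 cpm. Whether CREB3L1 bears on these levels was not tested.

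Of the 20 calls at 20 days, 15 held under all 20 alternative settings. The exceptions were TXNDC5, DNAJC3, CRELD2, SEC24D and CREB3L1. Without D20+ TGF-β replicate 3, which stood apart, 16 genes were higher and 2 lower, and CREB3L1 was no longer called without D20+ TGF-β replicate 1 (adjusted p = 0.0467), D20+ TGF-β replicate 2, any of the D20 replicates or D1+ TGF-β replicate 1.

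**Figure D3:**
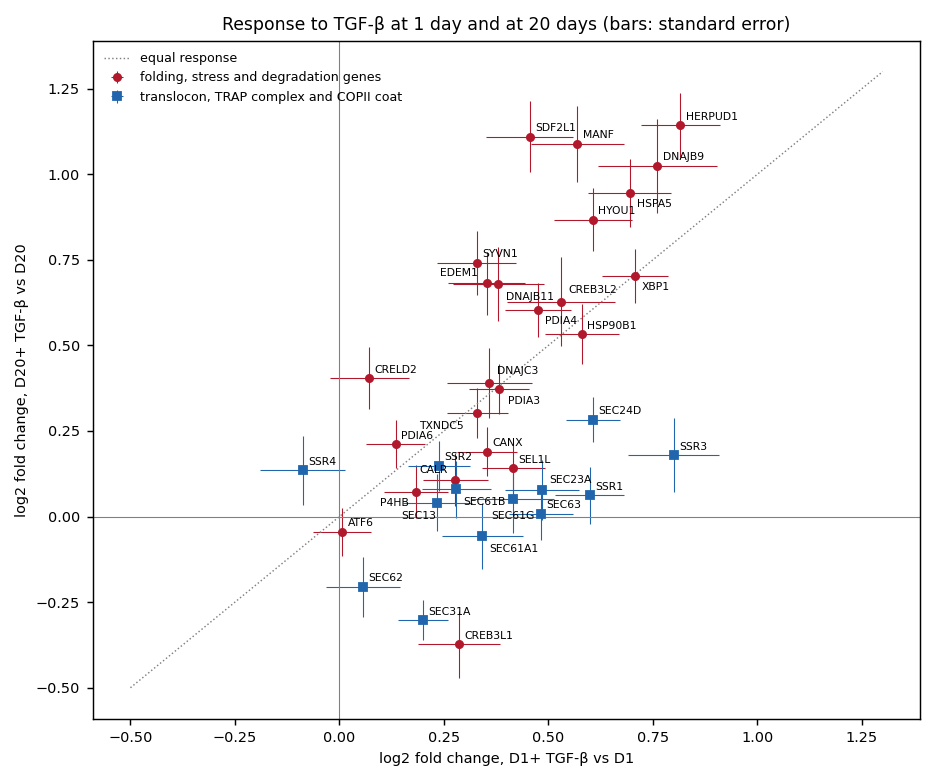
Log2 fold change of the 37 genes tested after 1 day of TGF-β (horizontal axis) and after 20 days (vertical axis), with standard errors as bars. Red circles are folding, stress and degradation genes and blue squares are translocon, TRAP and COPII genes. The dotted line marks equal responses, and 12 of the 13 blue squares lie below it, SSR4 being the exception. SEC63, SSR1 and SEC31A were the only blue squares whose difference passed its test. Of all 9490 genes tested, 4983 had a difference above 0.

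Set side by side, 13 genes were higher at both days (HSPA5, HSP90B1, HYOU1, PDIA3, PDIA4, TXNDC5, DNAJB9, SDF2L1, MANF, XBP1, CREB3L2, HERPUD1 and SEC24D), as were 3.16% of all genes tested. Another 7 were called higher at 1 day and not called at 20 days (3.22% of all genes), 5 of them translocon, TRAP or COPII genes (SEC61G, SEC63, SSR1, SSR3 and SEC23A) beside CANX and SEL1L. DNAJB11, DNAJC3, CRELD2, SYVN1 and EDEM1 were called higher at 20 days and not called at 1 day (9.38% of all genes). Passing on one day and not on the other does not show that the responses differ, and that difference was tested on its own.

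The response at 20 days minus the response at 1 day passed the test for 5 of the 37 genes, 1 higher and 4 lower, where 10.4% of all genes passed, 4.51% higher and 5.87% lower. SEC31A had the smallest adjusted p, with a log2 difference of -0.50 (SE 0.084, adjusted p = 0.00116). It was at 439.9, 427 and 448 cpm at D1 and 503, 507 and 500.1 cpm at D1+ TGF-β, so the treated flasks were above the untreated ones at 1 day, where the change did not pass (log2 fold change 0.20, adjusted p = 0.0258), and below them at 20 days. CREB3L1 differed by -0.66 (SE 0.14, adjusted p = 0.00453), with 126, 119 and 104 cpm at D1 and 135, 129 and 163 cpm at D1+ TGF-β, the same turn of order, and its 1-day change did not pass either (adjusted p = 0.0474). SSR1 differed by -0.54 (SE 0.12, adjusted p = 0.00591), and its flasks overlapped at 20 days, at 300.1, 311 and 325 cpm without and 343, 327 and 308 cpm with TGF-β. SEC63 (chr6:108188960-108279412, minus strand) differed by -0.47 (SE 0.11, adjusted p = 0.00728). On day 1 it was at 121, 147 and 134 cpm without and 192, 196 and 175 cpm with TGF-β, and on day 20 at 171, 172 and 179 cpm without and 171, 175 and 179 cpm with TGF-β, so that the D1 flasks lay below all the others. SDF2L1 was the gene whose response was larger at 20 days, by 0.65 (SE 0.15, adjusted p = 0.00658), with 14.5, 13.4 and 14.3 cpm at D1 and 17.8, 20.7 and 19.0 cpm at D1+ TGF-β.

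Outside these 5, SSR3 had a difference of -0.62 (adjusted p = 0.0114) and MANF one of 0.52 (adjusted p = 0.0307), neither past the threshold. The other 4 translocon genes and the other 3 COPII genes had differences below 0 (from -0.41 to -0.19). SSR2 was at -0.09 and SSR4 at 0.22. Differences above 0 were found in 15 of the 37 genes and in 4983 of all 9490. Of the 5 calls, the call of SEC31A alone held under all 19 alternatives that could give it. The call of SDF2L1 was lost in 11 of them, SEC63 in 12, SSR1 in 9 and CREB3L1 in 8. With no composition factor 1 gene was called in each direction. Without D20+ TGF-β replicate 3, 6 genes were lower and 0 higher, and without D1 replicate 2, 5 were lower and 1 higher. Only 1 gene was lower without any 1 of the D20 replicates or without D20+ TGF-β replicate 2, and 2 were lower without D1 replicate 3, any 1 of the D1+ TGF-β replicates or D20+ TGF-β replicate 1.

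The comparison of D20+ TGF-β with D1+ TGF-β asked what long treatment changed beyond short treatment, and here time and passage number cannot be told apart. Between the treated flasks, 8 of the 37 genes were higher and 10 lower at 20 days, where 34.8% of all genes changed, 17.2% higher and 17.7% lower. The higher genes were folding, stress and degradation genes (HSPA5, PDIA3, PDIA4, DNAJB9, SDF2L1, CRELD2, HERPUD1 and SEL1L). Of the lower genes, 9 were entry and export genes: all 4 COPII genes, 3 of 5 translocon genes (SEC61A1, SEC61B and SEC61G), SSR1 and SSR3. CREB3L1 was the other lower gene.

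SSR3 had the largest change of the 37, a log2 fold change of -0.85 (SE 0.11, adjusted p = 3.75e-05). It was at 456, 449.9 and 574 cpm at D20+ TGF-β, all below the D1+ TGF-β flasks given above. The untreated D20 flasks, at 434, 438 and 434 cpm, lay below both. SEC13 (chr3:10334815-10362796, minus strand), which is shared by the COPII coat and the nuclear pore, went from 183, 178 and 176 cpm in the D1+ TGF-β flasks to 129, 114 and 122 cpm after 20 days, a change of -0.55 (SE 0.084, adjusted p = 0.000139). CREB3L1 changed by -0.54 (SE 0.098, adjusted p = 0.000589) and SEC24D by -0.44 (SE 0.065, adjusted p = 0.000119), from its 1-day flasks above to 209, 197 and 218 cpm. SSR1 changed by -0.48 (SE 0.083, adjusted p = 0.000402). In the other direction, DNAJB9 was higher by 0.64 (SE 0.14, adjusted p = 0.00169) and HERPUD1 by 0.61 (SE 0.091, adjusted p = 0.000135). HSPA5 was higher by 0.47 (adjusted p = 0.00163) and CRELD2, a luminal stress protein whose flasks overlapped at 1 day, by 0.47 (adjusted p = 0.000969). The XBP1 flasks overlapped, with a change of -0.02 (adjusted p = 0.824). Of the 18 calls, 11 held under all 20 alternatives, among them SSR3, SEC13, CREB3L1, SEC24D, SSR1, DNAJB9, HERPUD1, HSPA5 and CRELD2. The D20+ TGF-β flasks lay above all D1+ TGF-β flasks in 16 genes (31.7% of all genes) and below in 13 (31.5%). With no composition factor the split was 11 higher and 9 lower. Without D1 replicate 2, 12 genes were higher and 11 lower, and without D20+ TGF-β replicate 3, 6 and 9. The number higher was 4 without D1+ TGF-β replicate 1 or D20+ TGF-β replicate 1, and 5 without D1+ TGF-β replicate 2.

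Untreated cells were compared at D20 and D1 for the effect of time in culture, which passage number shares. Here 7 genes were higher and 1 lower, where 36.4% of all genes changed, 18.9% higher and 17.6% lower, and the median log2 fold change was -0.01. The genes higher were HSP90B1, CALR, PDIA3, SEL1L, SEC62, SEC63 and SEC31A, and SEC13 was lower. SEL1L (chr14:81937891-82000197, minus strand), the adaptor that holds SYVN1 in the degradation complex, was at 170.5, 190.4 and 181 cpm at D1 and 257, 262 and 275 cpm at D20, higher by 0.55 (SE 0.076, adjusted p = 4.67e-05). It was the only one of the 8 calls that held under all 20 alternatives. SEC63 and SEC31A were higher by 0.37 (adjusted p = 0.00113) and 0.27 (adjusted p = 0.00184), from the flask values above. PDIA3 (ERp57), the isomerase that works with calnexin and calreticulin, was at 385, 448 and 415 cpm at D1 and 493, 531 and 538 cpm at D20, higher by 0.32 (adjusted p = 0.00223). Its exons overlap CATSPER2P1 and ELL3 on the other strand. CALR was at 881, 950.2 and 809.6 cpm at D1 and 1059, 1138 and 1128 cpm at D20, higher by 0.33 (adjusted p = 0.00295), and SEC13 was at 161, 132 and 163 cpm at D1 and 120.1, 123 and 113 cpm at D20, a change of -0.36 (adjusted p = 0.00288). The flasks of the 2 days did not overlap for these genes. Over the 37 genes, the D20 flasks were all above in 11 (29.4% of all genes) and all below in 8 (26.2%). Of the genes with large TGF-β responses, HERPUD1 was at 0.28 (adjusted p = 0.0251), DNAJB9 at 0.38 (0.0400) and HSPA5 at 0.22 (0.0837). None of these passed, though their D20 flasks all lay above their D1 flasks. SDF2L1 at -0.24 and SSR3 at -0.23, with the D20 flasks all below, did not pass. Nor did XBP1 at -0.02 and MANF at -0.19, with overlapping flasks. With no composition factor the calls were 2 higher and 2 lower. Without D1 replicate 2 there were 9 higher and 2 lower, and without D20+ TGF-β replicate 3, 8 and 2. Without D20 replicate 3 there were 2 higher and 0 lower, without D20 replicate 2, 3 higher, without D1 replicate 3, 4 higher, and without D20 replicate 1, 0 lower.

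**Figure D4:**
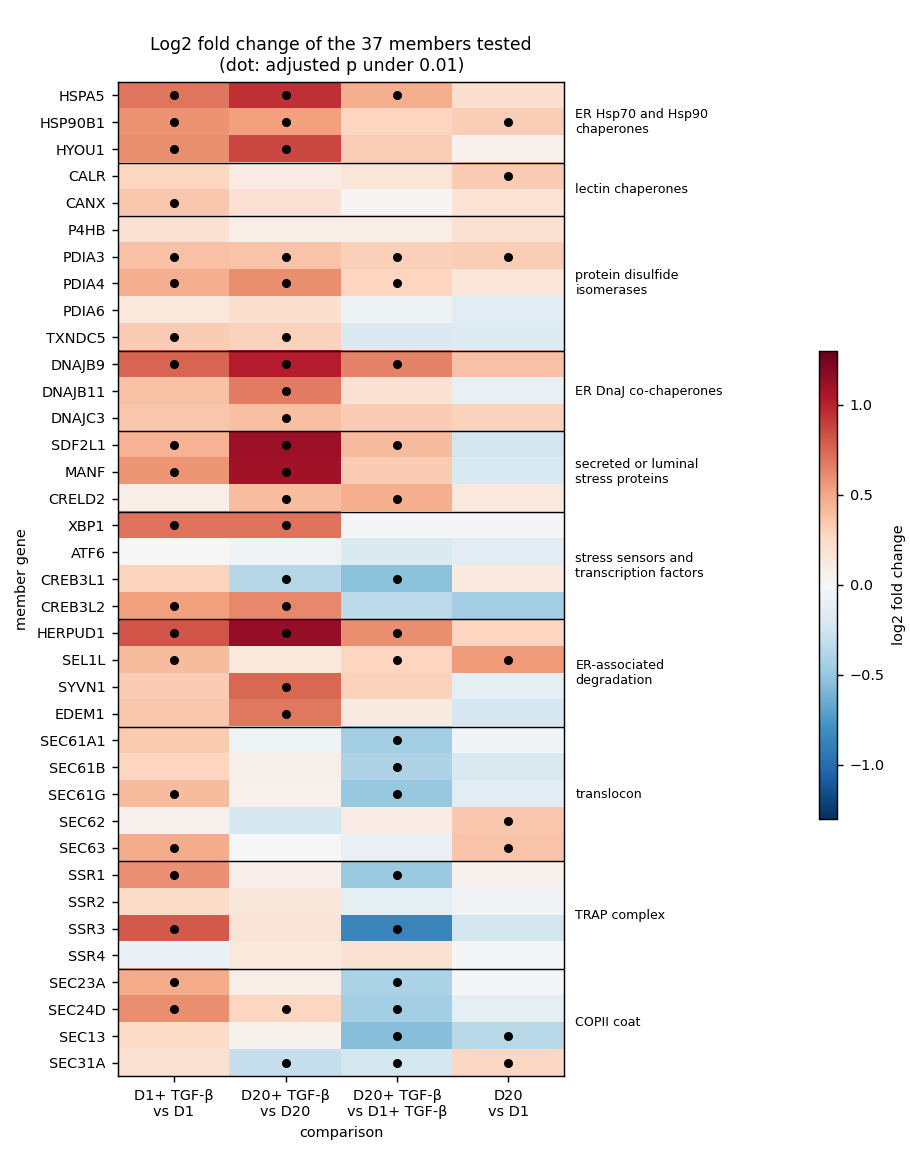
Log2 fold change (colour) of the 37 genes tested (rows, by role) in the 4 comparisons (columns), with a dot where the adjusted p was under 0.01. The dots of the first column run through every role, those of the second lie among the folding, stress and degradation genes except SEC24D and SEC31A, and in the third column all 4 COPII genes carry a dot for a decrease.

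The members that hold an ERSE or ERSE-II in the windows above numbered 9 (0.136% of all promoters held either). Of these 9, 7 were higher after 1 day and 7 after 20 days of TGF-β (6.89% and 12.8% of all genes). The exceptions at 1 day were CALR and CRELD2, and at 20 days CALR and CANX. Among the 28 tested members without either element or without a window, 13 were higher at 1 day, and at 20 days 11 were higher and 2 lower. Of all genes, 14.7% were lower at 20 days. Whether an element bears on the response was not tested.

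The rest of the pathway was read from a list of 121 other ER genes in 13 roles, 114 of them tested. After 1 day of TGF-β, 21 were higher and 1 lower (6.89% and 6.5% of all genes), with a median log2 fold change of 0.14. TRIB3, a pseudokinase raised by the PERK branch, had the largest log2 fold change of the 114, 1.04 (adjusted p = 0.00168). DDIT3 (CHOP) was at 0.73 (adjusted p = 0.0228), which did not pass, and the treated flasks of both genes lay above the untreated ones. KDELR3 and KDELR2, receptors that return escaped chaperones to the ER, were higher by 0.56 (adjusted p = 6.46e-05) and 0.45 (adjusted p = 0.000409). TRAM2, a translocon relative known for its part in collagen synthesis, was higher by 0.77 (adjusted p = 0.000192), PDIA5 by 0.59 (adjusted p = 6.94e-05), the co-chaperone DNAJC10 by 0.50 (adjusted p = 0.000204), and STT3B and STT3A, the catalytic subunits of oligosaccharyltransferase, by 0.43 (adjusted p = 0.000848) and 0.38 (adjusted p = 0.00147). The large-cargo receptor genes MIA2 and MIA3 were higher by 0.60 (adjusted p = 0.00208) and 0.29 (adjusted p = 0.00741). In this list 5 of 13 cargo and KDEL receptor genes, 4 of 12 COPI genes, 3 of 11 oligosaccharyltransferase genes and 2 of 14 further COPII and ER exit genes were higher, and the gene lower was WFS1, an ER membrane protein (-0.55, adjusted p = 0.000455).

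After 20 days the same 114 genes gave 11 higher and 16 lower (12.8% and 14.7% of all genes), with a median log2 fold change of -0.02. TRIB3, already higher at 1 day, was higher by 2.49 (adjusted p = 6.95e-07), and DDIT3 by 1.93 (adjusted p = 9.40e-06). Of the other genes of the same role, ATF3 was under the filter on low counts and, in the fit with no filter, lower at -2.09 (adjusted p = 2.06e-07), with the treated flasks below the untreated ones, and EIF2AK3, PPP1R15A and PPP1R15B were at 0.20 (adjusted p = 0.173), 0.27 (adjusted p = 0.0103) and 0.37 (adjusted p = 0.0115), which did not pass. WFS1 was lower, at -1.20 (adjusted p = 2.37e-07). DNAJC10 and ERP29, folding factors of the lumen, were higher by 0.69 (adjusted p = 6.13e-06) and 0.55 (adjusted p = 0.000127), and STT3B and STT3A by 0.47 (adjusted p = 0.000191) and 0.41 (adjusted p = 0.000468). TRAM1, the translocon relative of TRAM2, was at -1.20 (adjusted p = 1.20e-06), SPCS3 of the signal peptidase at -0.62 (adjusted p = 6.93e-05), COPZ2 of the COPI coat at -0.67 (adjusted p = 6.82e-05), SAR1A, the GTPase that starts COPII assembly, at -0.38 (adjusted p = 0.00122) and KDELR2 at -0.36 (adjusted p = 0.00121). All 5 were lower. The cargo and KDEL receptors gave 0 higher and 3 lower of 13, the COPI coat 0 higher and 3 lower of 12, and the further COPII and ER exit genes 2 higher and 2 lower of 14.

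The response of these 114 genes at 20 days minus that at 1 day passed for 2 higher (TRIB3 and ERP29) and 16 lower genes (4.51% and 5.87% of all genes), among them KDELR2 (-0.81, adjusted p = 0.000126), KDELR3 (-0.58, adjusted p = 0.00112), TRAM1 (-1.38, adjusted p = 4.28e-05) and SAR1A (-0.62, adjusted p = 0.00133). Between the treated flasks of the 2 days, 10 were higher and 33 lower (17.2% and 17.7% of all genes), with 8 of 12 COPI genes, 7 of 14 COPII and ER exit genes and 6 of 8 signal recognition particle genes lower. In untreated cells 19 were higher and 10 lower at D20 (18.9% and 17.6% of all genes).

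A list of 17 chaperones of the cytosol and mitochondria was read beside the ER genes. After 1 day of TGF-β 1 was higher and 2 lower (6.89% and 6.5% of all genes), with a median of -0.07. DNAJB4 was the higher one, at 0.71 (adjusted p = 0.001), and HSPA1A and HSPA1B were lower, at -0.79 (adjusted p = 0.00774) and -0.93 (adjusted p = 0.00035). HSPA1A and HSPA1B are near-identical copies, so the split of reads between them is uncertain. After 20 days 4 were higher and 3 lower (12.8% and 14.7% of all genes). The higher ones were the mitochondrial chaperones HSPA9 (0.83, adjusted p = 2.69e-05), HSPD1 (0.52, adjusted p = 4.78e-05) and HSPE1 (0.64, adjusted p = 2.82e-05) and the cytosolic HSPH1 (0.47, adjusted p = 0.00125), and the lower ones HSPB1 (-0.73, adjusted p = 1.41e-05), BAG3 (-0.64, adjusted p = 3.52e-05) and CRYAB (-1.01, adjusted p = 0.000514).

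Over the 12 libraries, the genes whose log2 cpm followed HSPA5 most closely among all 9490 were HERPUD1 (Pearson r = 0.991), HYOU1 (0.971), SEMA5A (0.966), DDIT4 (0.965) and SPOCK1 (0.965). The 12 points fall into 4 conditions and share their library depth, so these are descriptions without a test. Of the 100 genes highest in r, 91 were not members and 9 were: HERPUD1, HYOU1, PDIA4, HSP90B1, PDIA3, SDF2L1, MANF, DNAJB9 and SYVN1. Among all 9490 genes tested, 37 were members, HSPA5 included. At the other end of the set were SEC31A (-0.27), CREB3L1 (-0.31) and ATF6 (-0.36).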

How the data were processed

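The authors trimmed the reads with Trimmomatic, mapped them to hg19 with Rsubread and deposited raw counts per gene for each of 4 lanes per library, without normalization. The authors also deposited log2 cpm per gene and lane, as voom writes it, for 9412 genes. The counting program, its annotation and its use of strand are not given in the sources used here. The libraries were directional and paired-end, from 3 of 5 flasks per condition.

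The 4 lanes of each of the 12 libraries were summed. The genes tested (9490 of 20434 with a count) reached 10 cpm in 6 libraries or more, and were fitted with edgeR 4.0.16 in R 4.3.3: TMM factors (0.970 to 1.04), 1 mean per condition, quasi-likelihood test, Benjamini-Hochberg adjustment over all genes tested, threshold 0.01. The study's methods used limma and a filter over 48 samples, which is the number of lanes. They do not say how the lanes entered the model. A fit with the 48 lanes as samples is an alternative here because lanes repeat a library. The standard error was taken as the absolute log2 fold change divided by the square root of F. The cpm values use library size times TMM factor. With 3 flasks against 3 an exact permutation test cannot fall below 0.10, so none was run. Levels per kilobase used the length of 1 canonical transcript per gene.

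The members and all gene lists were chosen with earlier results of these data known. Flask values are given for up to 6 called members per comparison with the smallest adjusted p and no overlap of flasks, and full statistics for called members with a log2 fold change of 0.5 or more in size. ATF6, ERN1's values beyond its cpm and flask values of further members were added after their values were seen. So were DDIT3, COL1A1, COL1A2 and chaperones past the first 2 of their list. Of the other pathway genes, the rule named the 2 with the smallest adjusted p per role and comparison, and not all of these are printed. The alternatives were DESeq2 1.42.0, limma 3.58.1 on the deposited log2 values, limma-voom on the 48 lanes, RLE factors, no composition factor, no filter, only the libraries of the groups compared, leaving out each library and the replicate number as a block. The code was tested on simulated data. Gene positions are from GENCODE on GRCh37 and promoter windows from RefSeq on GRCh38.p14.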

Additional observations from a re-analysis of the deposited data

Results flagged for a closer look

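The TGF-β responses at 20 days and 1 day differed at an adjusted p under 0.01 (edgeR quasi-likelihood) for 5 of the 37 genes. Among all genes tested 10.4% passed, 4.51% higher and 5.87% lower. Each of the 5 is given here as the log2 difference. SDF2L1 was at 0.65, with a response of 0.46 at 1 day and 1.11 at 20 days. CREB3L1 was at -0.66, with responses of 0.29 and -0.37. SEC63 was at -0.47, with 0.48 and 0.01. SSR1 was at -0.54, with 0.60 and 0.06. SEC31A was at -0.50, with 0.20 and -0.30, and was the one of these that passed under all 19 alternatives that could give the difference. With 3 flasks per condition, no flask was tested as an outlier.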

How the results depend on the processing

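No called change reversed its direction under any of the 20 alternatives. Of the 71 calls over the 5 tests, DESeq2 lost 0 and gained 12, limma on the deposited log2 values lost 3, RLE factors lost 2, no composition factor lost 14 and gained 4, no filter lost 14 and gained 2, and the 48 lanes as samples lost 0 and gained 64. With only the libraries of the groups compared, 14 of 66 calls were lost. Leaving out 1 library lost from 2 to 20 calls and gained up to 14.

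Higher after 1 day of TGF-β (20) became 33 with the 48 lanes and ranged from 12 to 22 without 1 library. Lower after 20 days (2) became 1 with the deposited log2 values, with RLE factors, with no composition factor and with the replicate block, and ranged from 1 to 2 without 1 library. Higher at D20+ TGF-β vs D1+ TGF-β (8) became 17 with the lanes and 4 with no filter, and ranged from 4 to 12. Higher at D20 vs D1 (7) became 14 with the lanes, 2 with no composition factor, 1 with no filter and 1 with only the groups compared, and ranged from 2 to 9. Lower at D20 vs D1 (1) became 2 with DESeq2, 8 with the lanes, 2 with no composition factor, 2 with no filter and 0 with only the groups compared, and ranged from 0 to 2. The difference of responses had 1 higher gene, 9 with the lanes and 0 with the replicate block, with a range of 0 to 1, and 4 lower genes, 13 with the lanes and 1 with no composition factor, with a range of 1 to 6. The lanes as samples count each library 4 times. The cause of the other changes was not tested. No composition factor moved the median of all genes for the difference of responses from 0.02 to 0.13 on the log2 scale. The share of counts of the 38 genes became 1.33% at D1+ TGF-β and 1.08% at D20 with TMM-scaled cpm.

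The replicate numbers did not pair the libraries: deviations of libraries with the same number correlated at -0.22 to 0.32. As a replicate block they lost 10 of the 71 calls and gained 0. Genes near the filter, such as ERN1 with at most 13.9 cpm, are limited by depth.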
